A study of Mus musculus with 28 samples.

Results

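Motile cilium genes were taken as the genes of the count table whose symbols name an axonemal dynein heavy chain (Dnah), an axonemal dynein intermediate chain (Dnaic), a tektin (Tekt) or a cilia and flagella associated protein (Cfap), together with Foxj1, Hydin, Ccdc39, Ccdc40, Rsph1 and Spag6l. The rule found 58 of the 28244 genes in the table. The set was selected on its names, and in part it was chosen by a measured value, the higher level of Hydin in Sox2-GFP lung pNSCs than in Sox2-GFP brain NSCs. Values of that contrast are therefore given as a description without p-values. Its counts of genes past the limits on edgeR adjusted p and fold change are a description too.

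A motile cilium is a microtubule axoneme of paired outer tubules around a central pair. Dynein arms on the outer tubules provide the force, tektins and many Cfap proteins stabilise the tubules, Ccdc39 and Ccdc40 set the spacing of the inner arms, and radial spokes and the central apparatus, which contains Hydin, shape the beat. Foxj1 and the Rfx factors drive the transcription of these genes, and Gmnc and Mcidas start the multiciliated programme in airway and ependymal cells. Neural stem cells (NSCs) of the ventricle wall usually carry a single primary cilium, which uses intraflagellar transport but lacks most of the motility machinery.

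Bulk polyA RNA was sequenced from 28 samples in 11 groups. All labels name the strain C57BL/6, and the study's methods add that transgenic animals were bred to wild-type CD1 or mixed CD1/C3H mice. The question was how NSC-like cells from tissues outside the central nervous system, called peripheral NSCs (pNSCs), compare with brain NSCs, with their tissue of origin and with neural crest stem cells (NCSCs). Replicates are called biological in the study. The pNSC lines were picked as single clusters, so the spread between replicates may not cover the spread between lines. The p-values below rest on the spread between replicates and share this limit.

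The Nes-GFP experiment holds brain NSCs, lung pNSCs and tail pNSCs with 2 samples each. Nes-GFP mice express GFP under Nestin regulatory elements. Lung pNSCs came from GFP+ cells of adult lung at 4 to 6 weeks, and tail pNSCs from GFP+ cells at postnatal days 1 to 5. It also holds 2 samples of lung cells and 2 of tail cells, whose age and passage the labels do not state. In the Sox2-GFP experiment, a knock-in reporter line, lung pNSCs from GFP+ lung cells of postnatal days 1 to 5 and brain NSCs have 3 samples each, and the same 2 samples of lung cells are the tissue reference. The Wnt1Cre-mTmG experiment holds brain NSCs, tail pNSCs and DRG pNSCs from dorsal root ganglia, with 3 samples each, and 3 samples of DRG NCSCs from wild-type mice. Wnt1-Cre switches the R26-mTmG reporter from Tomato to GFP in neural crest cells, and the tail and DRG pNSCs, from postnatal days 1 to 5, were Tomato+/GFP-. The NCSCs came from adult wild-type mice, so that age, genotype and cell type cannot be told apart in the contrasts with NCSCs. The pNSCs and brain NSCs were expanded in NSC medium with EGF and bFGF. Brain NSCs came from whole adult or postnatal brain.

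Total counts ran from 9808246 to 22637031 per sample. Within the Wnt1Cre-mTmG experiment depth ran along the groups, with brain NSCs and DRG pNSCs at 9808246 to 11431445 counts and tail pNSCs and DRG NCSCs at 17051461 to 22548268. Levels are given as cpm, the count of a gene relative to the library total after TMM scaling over all samples. The 8 NSC and pNSC groups held 1891 to 3213 cpm of Fabp7 and 894 to 1371 cpm of Olig2, both NSC markers. The DRG NCSCs held 798.6 cpm of Sox10 and 1217 cpm of the neural crest receptor Ngfr, but also 525.2 cpm of the macrophage gene Lyz2. Their replicate 3 differed from replicates 1 and 2 with 7.04 and 7.73 times the variance expected from counting. All other pairs of replicates within a group lay at 1.09 to 1.98 times that variance. The lung cells held 14150 cpm of the club cell gene Scgb1a1, 10450 cpm of the alveolar gene Sftpc, 3755 cpm of Lyz2 and 358.3 cpm of Tppp3, a gene of ciliated cells. In bulk samples fewer cells of a type and less RNA per cell cannot be told apart.

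Promoter windows were available for 48 of the 58 genes (54 windows of RefSeq, GRCm38.p6, from 250 bases before to 50 after the start). The letters GTTGCC or GGCAAC, the half-site that Rfx factors bind, were found on either strand in 21 of the 54 windows (38.89%), which belong to 19 genes, against 12.51% of all 32851 windows. The forkhead core TAAACA or TGTTTA was found in 10 of the 54 windows (18.52%), against 13.44% of all windows. The letters of the motifs do not overlap each other. The 250 bases before the start are shown for 5 genes whose levels are described below, 5′ to 3′ with the Rfx half-sites in capitals, so that their distance to the start can be seen. Each of the 5 holds a half-site and they do not stand for the set, in which 19 of 48 genes with a window hold one. Ccdc39 and Dnaic1, also described below, hold neither motif in these 250 bases.
Hydin, chr8:110266727-110266976, plus strand: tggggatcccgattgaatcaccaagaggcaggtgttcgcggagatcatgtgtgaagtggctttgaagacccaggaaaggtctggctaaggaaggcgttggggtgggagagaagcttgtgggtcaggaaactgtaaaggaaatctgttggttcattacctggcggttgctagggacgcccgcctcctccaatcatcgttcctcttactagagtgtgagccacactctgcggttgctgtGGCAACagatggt
Cfap46, chr7:139683816-139684065, minus strand: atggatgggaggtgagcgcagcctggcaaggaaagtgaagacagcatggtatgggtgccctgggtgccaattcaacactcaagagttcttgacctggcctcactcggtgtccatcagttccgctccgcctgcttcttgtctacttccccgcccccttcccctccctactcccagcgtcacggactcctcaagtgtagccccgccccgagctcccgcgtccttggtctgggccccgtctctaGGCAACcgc
Dnaic2, chr11:114727169-114727418, plus strand: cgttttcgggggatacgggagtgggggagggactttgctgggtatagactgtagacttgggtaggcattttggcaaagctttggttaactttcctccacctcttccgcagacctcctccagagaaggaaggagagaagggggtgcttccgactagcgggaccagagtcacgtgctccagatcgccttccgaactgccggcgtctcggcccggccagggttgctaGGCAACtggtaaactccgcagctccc
Cfap44, chr16:44394549-44394798, plus strand: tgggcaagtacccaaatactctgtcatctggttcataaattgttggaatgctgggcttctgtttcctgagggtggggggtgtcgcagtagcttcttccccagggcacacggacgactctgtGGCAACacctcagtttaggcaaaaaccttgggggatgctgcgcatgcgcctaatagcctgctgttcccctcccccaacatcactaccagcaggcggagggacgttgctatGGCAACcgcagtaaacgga
Tekt1, chr11:72361883-72362132, minus strand: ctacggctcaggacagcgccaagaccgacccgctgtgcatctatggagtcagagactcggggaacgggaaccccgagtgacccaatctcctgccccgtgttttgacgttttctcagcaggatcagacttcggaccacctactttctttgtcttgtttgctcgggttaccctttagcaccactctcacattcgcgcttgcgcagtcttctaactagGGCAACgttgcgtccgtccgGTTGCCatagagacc
The half-site of Cfap46 begins 9 bases before the start, that of Hydin 13, the nearer ones of Tekt1 and Cfap44 15 and 19, and that of Dnaic2 26. A match describes these windows and is not evidence of binding.

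Lung cells carried nearly the whole gene set, and the NSC and pNSC groups carried a minority of it. In lung cells 57 of the 58 genes had a mean of at least 1 cpm (98.3%), against 51.7% of all genes in the table. Tekt3 was the exception at 0.478 and 0.671 cpm. In the NSC and pNSC groups 17 to 25 of the 58 genes reached 1 cpm (29.3% to 43.1%), against 42.5% to 44.5% of all genes. DRG NCSCs reached 17 genes (29.3%, against 47.1% of all genes) and tail cells 25 (43.1%, against 50.9%). Of the 58 genes, 13 reached 1 cpm in all 8 NSC and pNSC groups, 17 in some of them and 28 in none. For 48 genes the mean was highest in lung cells, and for 28 genes it was at least 10 times the highest NSC or pNSC mean. The summed level of the set was 1103 to 1109 cpm in lung cells, 265.3 to 352.9 cpm in NSC and pNSC samples and 201.2 to 214.2 cpm in tail cells. A large part of the NSC and pNSC sums came from a few genes. Group means there were 47.8 to 83.1 cpm for Cfap20, 47.6 to 102 for Cfap36 and 28.2 to 34.1 for Cfap97. Lung cells held 54.8, 29.2 and 32.5 cpm of these genes.

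**Figure D1:**
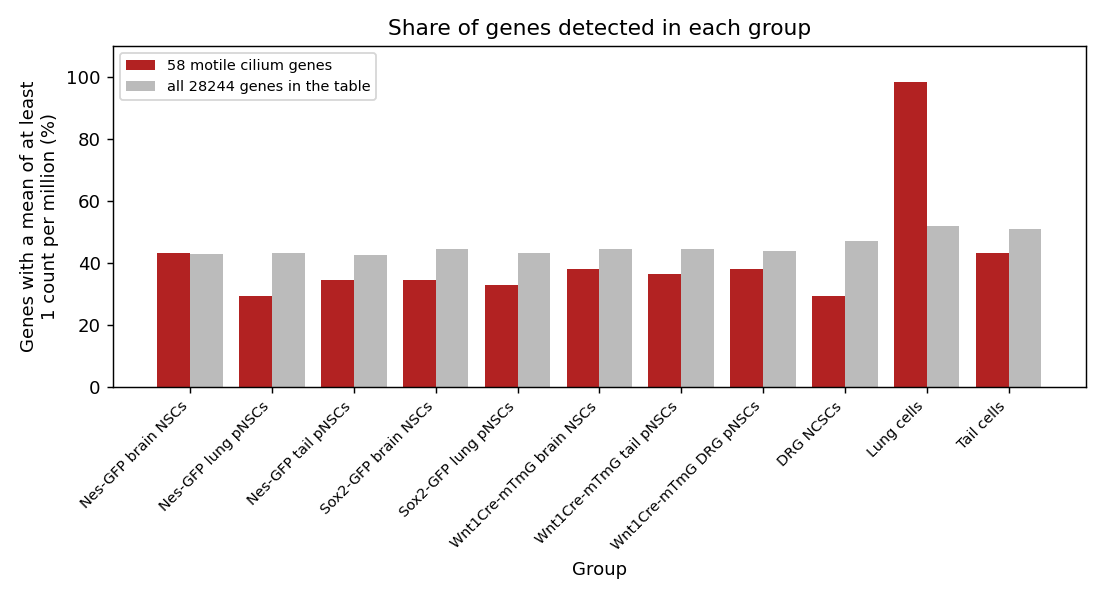
Bars give the percentage of genes whose group mean is at least 1 cpm, on an axis from 0, for the 58 motile cilium genes (red) and all 28244 genes (grey) in each of the 11 groups. Lung cells stand at 98.3% of the motile cilium genes, and the NSC and pNSC groups at 29.3% to 43.1%.

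**Figure D2:**
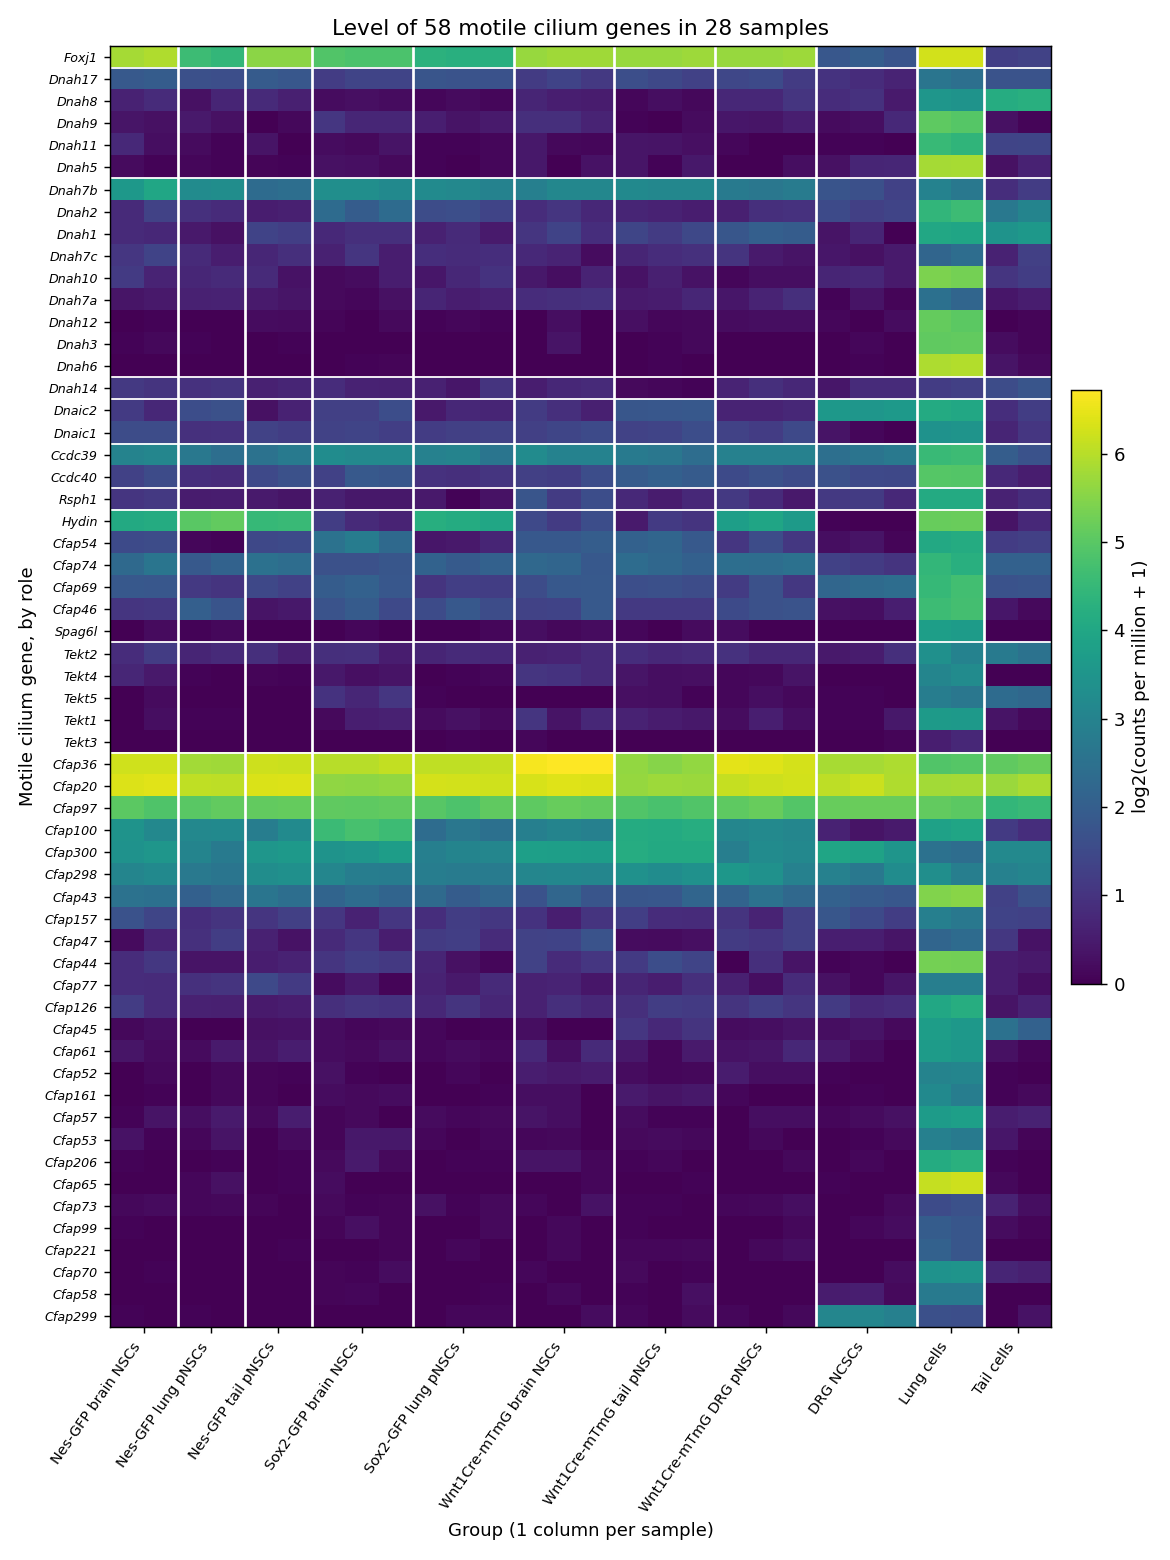
Each row is 1 of the 58 genes, ordered by role, and each column 1 of the 28 samples. Colour is log2(cpm + 1). Lung cells are bright in almost every row, whereas the NSC and pNSC columns are bright mainly for Foxj1, Dnah7b, Ccdc39 and a few Cfap genes, and for Hydin in 5 of the 8 groups.

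Foxj1, the forkhead factor that switches on motile cilium genes, lies at chr11:116330704-116335399 on the minus strand of GRCm38 and was present in every NSC and pNSC sample, at 17.9 to 60.2 cpm. The levels were 56.0 and 60.2 cpm in Nes-GFP brain NSCs, 46.4 and 46.3 in Nes-GFP tail pNSCs and 23.4 and 20.9 in Nes-GFP lung pNSCs. The lung pNSCs were below both other groups without overlap. Foxj1 fell by 1.41 (SE 0.0722, edgeR adjusted p = 2.01e-83) on the log2 scale in Nes-GFP lung pNSCs against brain NSCs. In the Wnt1Cre-mTmG experiment the samples of brain NSCs held 50.9, 53.4 and 53.6 cpm, tail pNSCs 50.9, 50.6 and 52.4, and DRG pNSCs 50.3, 50.6 and 52.2. These groups overlapped. DRG NCSCs held 2.52, 2.95 and 2.35 cpm, and Foxj1 fell by 4.33 (SE 0.0772, adjusted p = 1.44e-18) in them against brain NSCs. Sox2-GFP brain NSCs held 28.6, 27.5 and 27.1 cpm and Sox2-GFP lung pNSCs 19.0, 17.9 and 17.9. Lung cells held 76.5 and 75.7 cpm and tail cells 1.40 and 1.53, so that Foxj1 rose by 4.88 (SE 0.138) in Nes-GFP tail pNSCs against tail cells (adjusted p = 6.72e-273).

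Hydin, the large protein of the central apparatus, lies at chr8:110266977-110610253 on the plus strand. In the Nes-GFP experiment it stood at 16.1 and 16.8 cpm in brain NSCs, 31.2 and 33.4 in lung pNSCs and 21.7 and 22.6 in tail pNSCs. In the Wnt1Cre-mTmG experiment brain NSCs held 1.78, 1.25 and 2.02 cpm, tail pNSCs 0.398, 1.21 and 1.01, and DRG pNSCs 12.8, 14.6 and 11.7. The DRG pNSCs were above the brain NSCs without overlap, and Hydin rose by 2.93 (SE 0.231, adjusted p = 1.46e-08). In the Sox2-GFP experiment brain NSCs held 1.34, 0.740 and 0.580 cpm and lung pNSCs 17.4, 16.6 and 14.9, which is the difference that helped to choose the gene set. In order, and as a description only, the group means ran from 32.3 cpm in Nes-GFP lung pNSCs over 22.1, 16.4, 16.3 and 13.0 to 1.69 in Wnt1Cre-mTmG brain NSCs, 0.887 in Sox2-GFP brain NSCs and 0.875 in Wnt1Cre-mTmG tail pNSCs. Nes-GFP brain NSCs and Sox2-GFP lung pNSCs overlapped, and Sox2-GFP brain NSCs overlapped both neighbours in this order.

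Lung cells held 35.1 and 35.2 cpm of Hydin, and tail cells 0.279 and 0.702. In the DRG NCSCs Hydin had 1 count in replicate 1 and 0 in the others, and the ratio of brain NSCs to NCSCs was 101 with a 95% counting interval of 17.5 to 4070. For DRG pNSCs the ratio to NCSCs was 772.5 (137.9 to 30580). Hydin rose by 5.42 (SE 0.212, adjusted p = 1.13e-142) in Nes-GFP tail pNSCs against tail cells. An antisense gene, Gm26832, overlaps the start of Hydin, and without a stated strand setting reads from both cannot be told apart there. Of the nearest genes, Vac14, which begins behind Hydin, had means of 42.3 to 78.4 cpm in the NSC and pNSC groups. Cmtr2, before Hydin, had means of 9.26 to 15.5 cpm in the NSC and pNSC groups. In DRG pNSCs against brain NSCs 1 of the 6 nearest genes, Calb2, rose, by 1.13 (adjusted p = 0.0163). Calb2 also rose in Nes-GFP tail pNSCs against brain NSCs, where Hydin was not called and Il34 and Zfp612 fell. In Nes-GFP lung pNSCs against brain NSCs the log2 differences ran from -0.83 for Il34 to 0.84 for Zfp612. In Sox2-GFP lung pNSCs against brain NSCs they ran from -0.51 for Zfp612 to 0.88 for Vac14, under the fold limit in both contrasts.

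**Figure D3:**
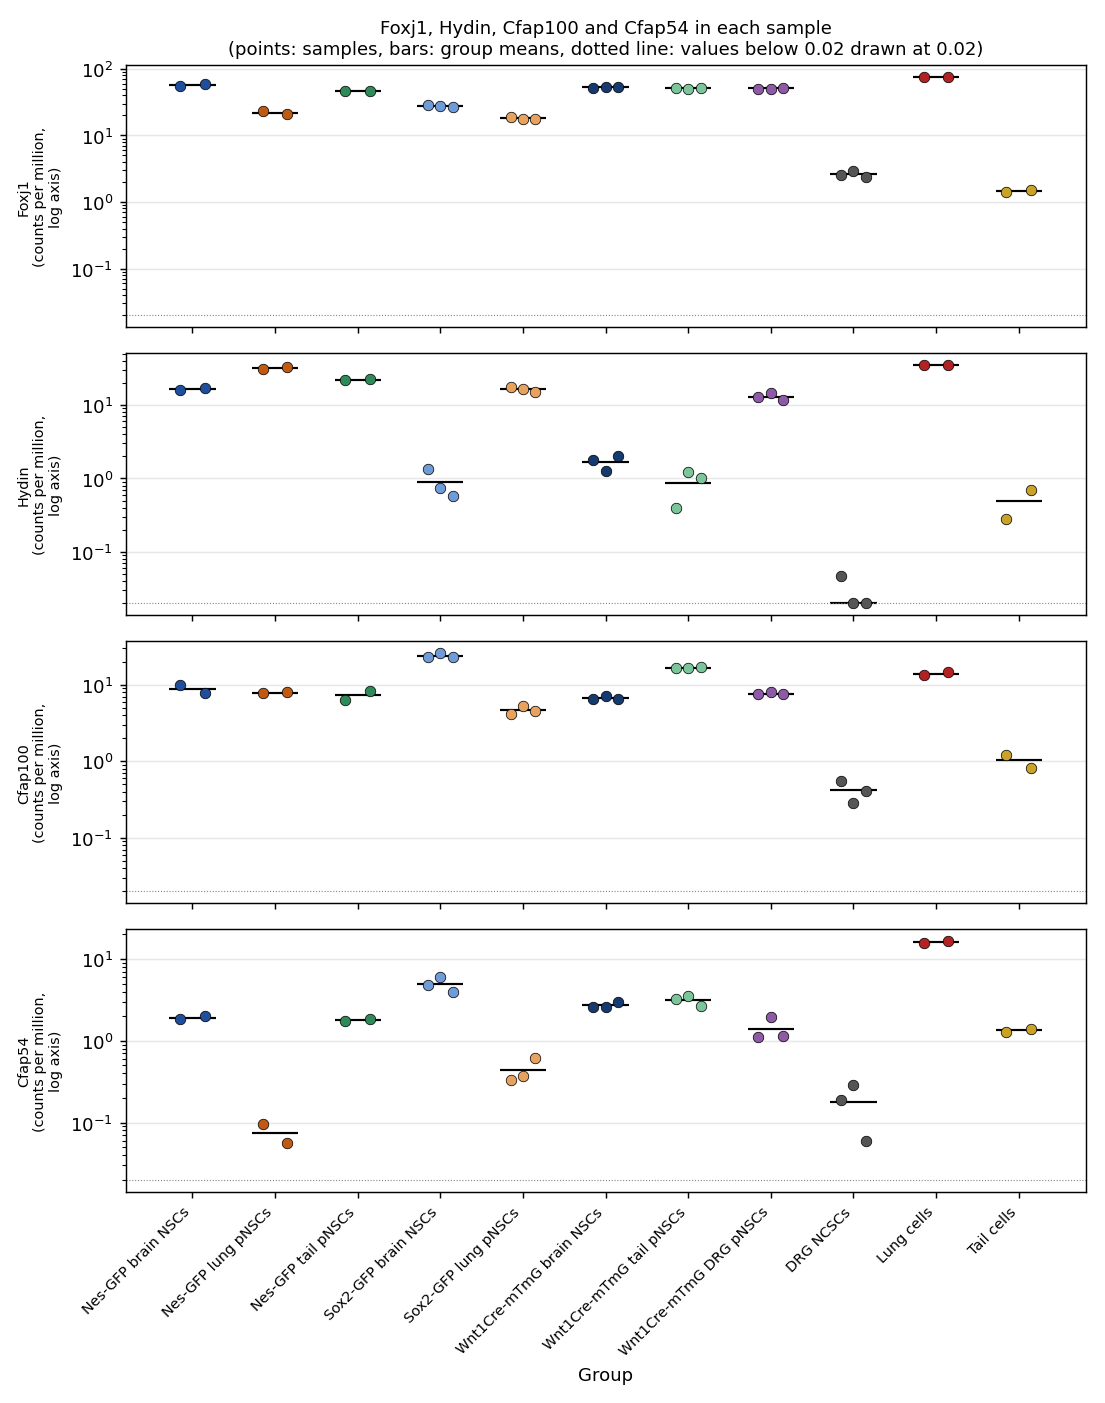
Points are samples and bars group means, in cpm on log axes, for Foxj1, Hydin, Cfap100 and Cfap54. Values under 0.02 cpm are drawn on the dotted line. Foxj1 lies between 17.9 and 60.2 cpm in the NSC and pNSC samples. Hydin lies between 11.7 and 14.6 cpm in Wnt1Cre-mTmG DRG pNSCs and between 1.25 and 2.02 in brain NSCs of that experiment.

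Among the other genes of the central apparatus, Cfap54 fell in Nes-GFP lung pNSCs against brain NSCs. It held 1.85 and 1.98 cpm in Nes-GFP brain NSCs, 1.74 and 1.83 in tail pNSCs, and 0.0947 and 0.0561 in lung pNSCs (3 counts in all). The ratio of brain NSCs to lung pNSCs was 24.9 with a 95% counting interval of 8.22 to 124, and the edgeR adjusted p was 1.19e-14. In the Sox2-GFP experiment, as a description only, lung pNSCs held 0.333, 0.369 and 0.615 cpm and brain NSCs 4.84, 6.05 and 3.94. Cfap46 moved in opposite directions in the Nes-GFP lines, from 1.05 and 1.11 cpm in brain NSCs to 3.13 and 2.35 in lung pNSCs and 0.290 and 0.356 in tail pNSCs. It rose by 1.32 (SE 0.285, adjusted p = 1.74e-05) in lung pNSCs and fell by 1.74 (SE 0.476, adjusted p = 0.000748) in tail pNSCs. Both contrasts share the brain NSC samples. Spag6l, a central apparatus protein, held 12.7 and 11.9 cpm in lung cells and at most 0.178 cpm in the NSC and pNSC samples.

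The outer arm heavy chains, the motors that set beat frequency, were low in the NSC and pNSC groups, where 4 of the 5 stayed under 1 cpm. Dnah5 held 56.0 and 56.5 cpm in lung cells and at most 0.357 cpm in the NSC and pNSC samples. Dnah9 held 32.5 and 29.7 cpm and Dnah11 22.1 and 20.1 cpm in lung cells, and their NSC and pNSC group means were at most 0.800 and 0.448 cpm. Dnah17, a chain best known from sperm, was the outer arm gene above 1 cpm in all 8 NSC and pNSC groups, at 1.18 to 2.90 cpm. Exons of Dnah17 overlap Pgs1 on the other strand. Dnah8, also a sperm chain, was highest in tail cells at 17.1 and 17.9 cpm against 0.753 and 0.509 in Nes-GFP tail pNSCs, and fell by 4.90 (SE 0.230, adjusted p = 2.49e-99) in the pNSCs.

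Of the inner arm heavy chains, Dnah6 showed the widest gap. Lung cells held 59.1 and 61.1 cpm, whereas Dnah6 had counts in only 3 of the 21 NSC and pNSC samples, at no more than 0.058 cpm. It was at least 387-fold lower in Nes-GFP lung pNSCs and at least 436-fold lower in Sox2-GFP lung pNSCs, both at 0 counts, taking 3 counts per library as the floor. Dnah7b was the inner arm gene above 1 cpm in all 8 groups, at 4.11 to 14.8 cpm. It fell by 1.62 (SE 0.156, adjusted p = 2.39e-24) in Nes-GFP tail pNSCs against brain NSCs, from 11 and 14.8 to 4.11 and 4.43 cpm. Dnah7a, Dnah7b and Dnah7c share 30.3% to 38.8% of their 50-base words, so that the division of reads among them is uncertain. Dnah1 rose by 1.30 (SE 0.374, adjusted p = 0.00901) in Wnt1Cre-mTmG DRG pNSCs, at 2.45, 3.14 and 2.87 cpm against 1.07, 1.54 and 0.843 in brain NSCs, a call that was lost without brain NSC replicate 3.

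The intermediate chain Dnaic2, which links heavy chains to the tubule, was highest outside lung cells in the DRG NCSCs. These held 11, 10.5 and 11.2 cpm, against 1.25, 0.868 and 0.506 in Wnt1Cre-mTmG brain NSCs, 2.48, 2.56 and 2.59 in tail pNSCs and 0.592, 0.588 and 0.670 in DRG pNSCs. All NCSC samples were above all samples of the other 3 groups. Dnaic2 rose by 3.64 (SE 0.182, adjusted p = 3.24e-12) in NCSCs and by 1.53 (SE 0.233, adjusted p = 1.87e-05) in tail pNSCs against the same brain NSCs. Dnaic1, its partner, was instead lowest in NCSCs, at 0.280, 0.0953 and 0 cpm against 1.43, 1.64 and 1.85 in brain NSCs, and fell by 3.54 (SE 0.465, adjusted p = 1.85e-06). The last exon of Dnaic1 overlaps Enho on the other strand.

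The ruler proteins Ccdc39 and Ccdc40 were detected throughout. Ccdc39 held 4.31 to 8.58 cpm in the NSC and pNSC samples and 22.4 and 23.2 in lung cells, and Ccdc40 means were 0.819 to 2.93 and 29.7 cpm. Exons of Ccdc39 overlap Ttc14 on the other strand. Rsph1, a radial spoke head protein, was highest among the NSCs in Wnt1Cre-mTmG brain NSCs, at 2.41, 1.25 and 2.02 cpm. Tail pNSCs held 0.708, 0.419 and 0.711 cpm and DRG pNSCs 1.18, 0.785 and 0.383. Rsph1 fell by 1.65 (SE 0.346, adjusted p = 0.000465) and 1.25 (SE 0.382, adjusted p = 0.0129) in them. It also fell by 1.66 (SE 0.472, adjusted p = 0.00126) in Nes-GFP tail and by 1.35 (SE 0.442, adjusted p = 0.007) in Nes-GFP lung pNSCs. The DRG call was lost without brain NSC replicate 1 or DRG pNSC replicate 3, and the Nes-GFP lung call without lung pNSC replicate 1. The tail and DRG contrasts of the Wnt1Cre-mTmG experiment share their brain NSCs, as do the tail and lung contrasts of the Nes-GFP experiment.

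The tektins, filaments of the tubule wall, were at or below about 1 cpm in the NSC and pNSC groups. Tekt1 held 11.7 and 11.2 cpm in lung cells and Tekt2 9.39 and 6.90, and their NSC and pNSC group means were at most 0.678 and 1.05 cpm. Tekt5 held 4.07 and 3.76 cpm in tail cells and 0 counts in Nes-GFP tail pNSCs, at least 24.0-fold lower. Tekt5 was also at 0.992, 0.653 and 1.10 cpm in Sox2-GFP brain NSCs and at most 0.221 cpm in the samples of the other 7 NSC and pNSC groups.

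Of the 26 other Cfap genes, 7 reached 1 cpm in all 8 NSC and pNSC groups and 14 in none. Cfap20, a tubule protein found in many ciliated cells, Cfap36 and Cfap97 held group means of 47.8 to 83.1, 47.6 to 102 and 28.2 to 34.1 cpm in the NSC and pNSC groups, and 54.8, 29.2 and 32.5 cpm in lung cells. Cfap36 fell by 1.12 (SE 0.0529, adjusted p = 4.99e-12) in Wnt1Cre-mTmG tail pNSCs, from 98.5, 103 and 105 to 49, 44.8 and 49 cpm. Cfap100, a regulator of inner arms, was at 16.6, 16.4 and 17.3 cpm in Wnt1Cre-mTmG tail pNSCs and 6.51, 7.23 and 6.58 in brain NSCs, and rose by 1.29 (SE 0.0979, adjusted p = 2.98e-09). It stood at 23.0, 26.1 and 23.3 cpm in Sox2-GFP brain NSCs and 0.560, 0.286 and 0.411 cpm in DRG NCSCs, where it fell by 3.98 (SE 0.187, adjusted p = 1.35e-12) against brain NSCs. The end of Cfap100 overlaps Zxdc on the other strand. Cfap47 fell by 3.33 (SE 0.346, adjusted p = 1.88e-07) in Wnt1Cre-mTmG tail pNSCs, from 1.51, 1.54 and 2.28 to 0.177, 0.140 and 0.203 cpm.

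Cfap65 showed the opposite extreme, with 69.5 and 73.3 cpm in lung cells and at most 0.224 cpm in any NSC or pNSC sample. It was at least 519-fold lower in Sox2-GFP lung pNSCs, which had 0 counts. Cfap299 was detected mainly in DRG NCSCs, at 7.51, 7.58 and 6.64 cpm, against 2.12 and 2.08 in lung cells and at most 0.169 cpm in the NSC and pNSC samples. Its ratio of NCSCs to brain NSCs was 122 with a 95% counting interval of 33.5 to 1009. In this experiment Cfap299 passed the filter through the NCSCs alone, so the ratio is a description and no p is given. Another gene, E030032P16Rik, overlaps the exons of Cfap299 on the same strand.

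Per kilobase of exon, Wnt1Cre-mTmG brain NSCs held 20.1 cpm of Foxj1 and 18.2 cpm of Cfap20, against 1.64 of Cfap100 and 0.0935 of Hydin. In lung cells the values were 29.0, 12.3, 3.40 and 1.95 cpm per kilobase.

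Against brain NSCs, most tested genes of the set were not called in any single pNSC group. A call required an edgeR adjusted p under 0.05 together with a log2 change of 1 or more in size. In Nes-GFP tail pNSCs 1 of 57 tested genes rose and 8 fell, where 10.9% of all genes were called (4.31% higher and 6.59% lower). The 1 that rose was Dnah1, by 1.00, a call lost without tail pNSC replicate 1 or brain NSC replicate 2, under upper-quartile scaling, without a filter and with only the groups compared. In Nes-GFP lung pNSCs 4 rose and 14 fell (8.71% of all genes called, 4.56% higher and 4.15% lower), a total of 18 that became 10 without lung pNSC replicate 2. Of the 57 tested genes, 32 and 33 passed the filter in these group pairs alone, and the rest passed it through the tissue samples of the same experiment. In Wnt1Cre-mTmG tail pNSCs 2 rose and 7 fell of 34 tested genes (18.2% of all genes called, 9.16% higher and 9.05% lower), and in DRG pNSCs 2 rose and 3 fell (9.53% called, 3.12% higher and 6.41% lower), a total of 5 that became 3 without brain NSC replicate 3 or DRG pNSC replicate 3. The 24 other genes were below the filter in that experiment. The median log2 fold change over the tested genes was -0.35 and -0.44 in Nes-GFP tail and lung pNSCs and 0.03 and -0.06 in Wnt1Cre-mTmG tail and DRG pNSCs, and over all genes it lay between 0 and 0.013. Astrocyte markers (Gfap, Aqp4, Aldh1l1, S100b) moved along these contrasts. Their summed level was 125.3 to 126.7 cpm in Nes-GFP brain NSCs, 78.0 to 84.7 in lung pNSCs and 10.5 to 12.3 in tail pNSCs. It was 1123 to 1147 cpm in Wnt1Cre-mTmG brain NSCs, 98.6 to 103 in tail pNSCs and 174 to 180 in DRG pNSCs. Of the 4 markers, 4 fell in Nes-GFP tail, 1 in Nes-GFP lung, 2 in Wnt1Cre-mTmG tail and 3 in DRG pNSCs, and none was at 0 in a group mean. Of 6 fibroblast markers, 5 rose in Wnt1Cre-mTmG tail pNSCs, to a summed 417.5 to 427.8 cpm from 33.1 to 33.9 in brain NSCs. In DRG pNSCs, at 29.0 to 32.6 cpm, 1 rose and 3 fell. In the Nes-GFP lines 3 rose in tail pNSCs (10.4 to 11.4 cpm) and 1 in lung pNSCs (7.23 to 9.66), against 7.93 to 9.98 cpm in brain NSCs, where Dcn and Lum had 0 counts. The part of both marker lists in the results was not tested.

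The same 2 lung cell samples served both lung contrasts. Against lung cells, 48 of 57 tested genes were lower and 0 higher in Nes-GFP lung pNSCs by edgeR (55% of all genes called, 20.2% higher and 34.9% lower). At an unadjusted p under 0.05, 4 were higher, and DESeq2 called 0 higher. In Sox2-GFP lung pNSCs 51 were lower and 1, Cfap36, was higher (56.3% called, 21.3% higher and 34.9% lower). Genes that passed the filter only through lung cells had to be lower, so these counts describe the set and support nothing further. Against tail cells, 7 genes rose and 17 fell in Nes-GFP tail pNSCs (46.7% called, 14.1% higher and 32.6% lower). The 7 that rose were Hydin, Foxj1, Cfap100, Cfap77, Dnah7b, Ccdc40 and Cfap43. Of the 57 tested genes, 30 passed the filter in this group pair alone. In that fit 7 were higher and 10 lower (2201 and 4968 of 15325 genes). The rest passed the filter through the other samples of the experiment, so the count of 17 describes the set and supports nothing further. The 17 that fell included Tekt5, Dnah8, Cfap45 and Dnah2. Fibroblast markers summed to 72240 to 73690 cpm in tail cells and 10.4 to 11.4 in Nes-GFP tail pNSCs. For neural crest and Schwann cell markers the sums were 767.2 to 773.0 and 3.82 to 3.87 cpm. Those of lung epithelial markers were 374.6 to 375.7 and 0.174 to 0.356 cpm. NSC markers went the other way, at 86.6 to 89.5 and 5826 to 5946 cpm. The part of these marker lists in the results was not tested.

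More tested genes of the set were lower than higher in DRG NCSCs against brain NSCs and against pNSCs. Against Wnt1Cre-mTmG brain NSCs, 3 of 34 tested genes rose and 14 fell (36.9% called, 22.1% higher and 14.8% lower). Against NCSCs, 14 rose and 7 fell in tail pNSCs (37.9% called, 15.3% higher and 22.6% lower), and 13 rose and 4 fell in DRG pNSCs (38.3% called, 15.1% higher and 23.3% lower). Both share the NCSC samples. With only the groups compared, 3 of 30 tested genes rose and 13 fell in NCSCs against brain NSCs (3130 and 2027 of 14080 genes). Against NCSCs, 13 of 30 rose and 3 fell in tail pNSCs (2199 and 3361 of 14544 genes). In DRG pNSCs 10 of 29 rose and 4 fell (1977 and 3329 of 14007 genes). Genes that passed the filter only through NSCs or pNSCs had to be lower in NCSCs. These counts therefore describe the set and support nothing further. The genes that rose over NCSCs included Foxj1, by 4.27 in tail and 4.28 in DRG pNSCs, and Cfap100, by 5.28 and 4.17. Cfap54 rose by 4.03 in tail pNSCs. Fibroblast markers summed to 2822 to 3478 cpm in NCSCs, 417.5 to 427.8 in tail pNSCs and 29.0 to 33.9 in brain NSCs and DRG pNSCs. Leukocyte markers summed to 547.2 to 577.7 cpm in NCSCs and 0.841 to 2.95 in the other groups of that experiment. The 10 ependymal and ciliated cell markers outside the set summed to 90.1 to 114.3 and 9.02 to 26.3 cpm. In NCSCs 5 of the 10 (Ccdc153, Mia, Pifo, Sntn and Tmem212) had no counts and 3 had a mean of at least 1 cpm. Between 2 and 3 of them reached 1 cpm in the other groups of that experiment. Of the 4 markers tested, Rarres2 and Tppp3 rose in NCSCs against brain NSCs and Dynlrb2 fell. Astrocyte markers summed to 137.1 to 168.3 cpm in NCSCs, 1123 to 1147 in brain NSCs and 98.6 to 180 in the pNSCs. NSC markers were lower in NCSCs, at 1454 to 1841 against 5674 to 6483 cpm. The part of these marker lists in the differences was not tested.

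**Figure D4:**
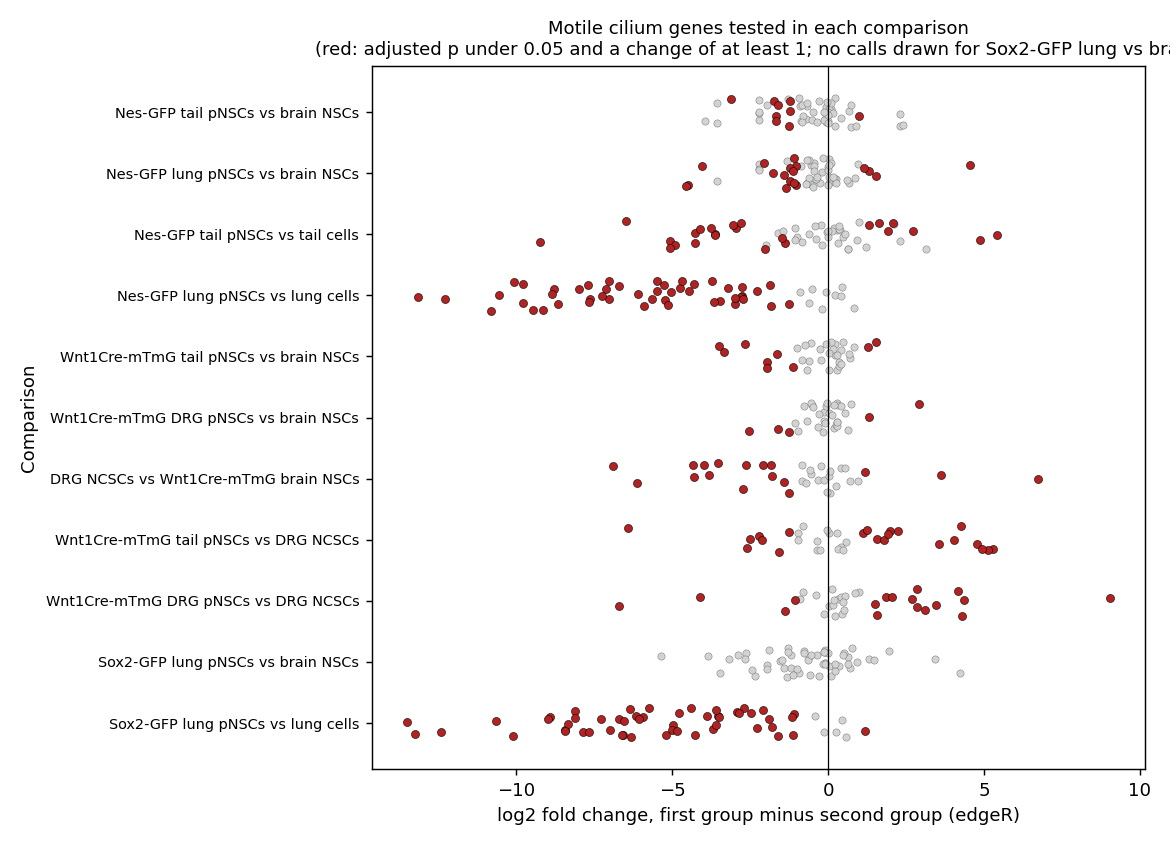
Points are log2 fold changes of tested motile cilium genes in each comparison, first group minus second group, with called genes in red. No calls are drawn for Sox2-GFP lung pNSCs against brain NSCs. Against lung cells 48 and 51 genes are called lower, and against brain NSCs the calls lie on both sides of 0.

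Sox2-GFP lung pNSCs against Sox2-GFP brain NSCs is the contrast behind the choice of genes, and its values are listed as a description from which nothing is read. Of 57 genes, 4 lay past the limits used elsewhere on the higher side and 14 on the lower side, where 15.7% of all genes did (5.76% higher and 9.99% lower). Of the 57, 30 passed the filter in these 2 groups alone, with 1 past the limits on the higher side and 8 on the lower side, and the rest passed it through lung cells. Hydin had a log2 fold change of 4.24, and Cfap54, Cfap100, Cfap44 and Dnaic2 had -3.47, -2.34, -1.95 and -1.47. The same 5 genes in Nes-GFP lung pNSCs against Nes-GFP brain NSCs had group means of 32.3 and 16.4 cpm for Hydin, 0.0754 and 1.92 for Cfap54, 7.94 and 8.86 for Cfap100, 0.282 and 0.957 for Cfap44, and 2.11 and 0.940 for Dnaic2. Astrocyte markers summed to 924.7 to 926.7 cpm in Sox2-GFP brain NSCs and 79.4 to 81.4 in Sox2-GFP lung pNSCs, and their part was not tested.

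The tail minus brain difference was compared between the experiments. In an interaction fit over 28 samples, 7 of 57 tested genes had a higher and 4 a lower tail minus brain difference in the Wnt1Cre-mTmG than in the Nes-GFP lines (16% of all genes called, 8.96% higher and 7.05% lower). A count of 11 in 57 is near that share. With only the groups compared, 7 of 38 tested genes had a higher and 5 a lower difference (1543 and 1158 of 14214 genes). Nothing is read about the set from these counts. Hydin differed by -1.40 (SE 0.344, adjusted p = 0.000791), with means of 22.1 and 16.4 cpm in Nes-GFP tail pNSCs and brain NSCs and 0.875 and 1.69 in those of Wnt1Cre-mTmG. Cfap100 differed by 1.58 (SE 0.180, adjusted p = 1.72e-09) and Dnah7b by 1.71 (SE 0.201, adjusted p = 3.17e-09).

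Regulators were considered as a list of 17 genes. Rfx3 and Rfx4, which act on ciliary promoters, were high in the NSC and pNSC groups, with means of 38.0 to 79.9 cpm for Rfx3 and 74.8 to 413.4 for Rfx4. Rfx4 was at 4.68 cpm in DRG NCSCs, 0.175 in lung cells and 0.351 in tail cells. Gmnc and Mcidas, which start the multiciliated programme, were at 3.95 and 1.38 cpm in lung cells and had counts in 1 and 2 of the 21 NSC and pNSC samples. Foxn4 and Deup1 had counts in 3 and 1 of them. Pifo and Sntn, late ciliated cell genes, had 0 counts in all 21 samples, which allows up to 3 counts in each, and held 7.19 and 6.49 cpm in lung cells. The whole list of 10 ependymal and ciliated cell markers that are not among the 58 genes, Pifo and Sntn included, summed to 8.24 to 26.3 cpm in the NSC and pNSC samples and 510.3 to 517.3 in lung cells. Between 1 and 4 of the 10 had a mean of at least 1 cpm in an NSC or pNSC group, and 9 did in lung cells. Tppp3 of this list rose in Wnt1Cre-mTmG tail pNSCs against brain NSCs, from a mean of 1.02 to 12.3 cpm, and Rarres2 fell there. The part of these markers in the results was not tested. Against brain NSCs, 1 regulator, Rfx2, rose in Nes-GFP tail pNSCs (4.31% of all genes rose), 1, Trp73, rose in Nes-GFP lung pNSCs (4.56%), 1 rose and 3 fell in Wnt1Cre-mTmG tail pNSCs (9.16% and 9.05%), and 0 of 11 tested were called in DRG pNSCs by edgeR or DESeq2, where 6 had an unadjusted p under 0.05.

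**Figure D5:**
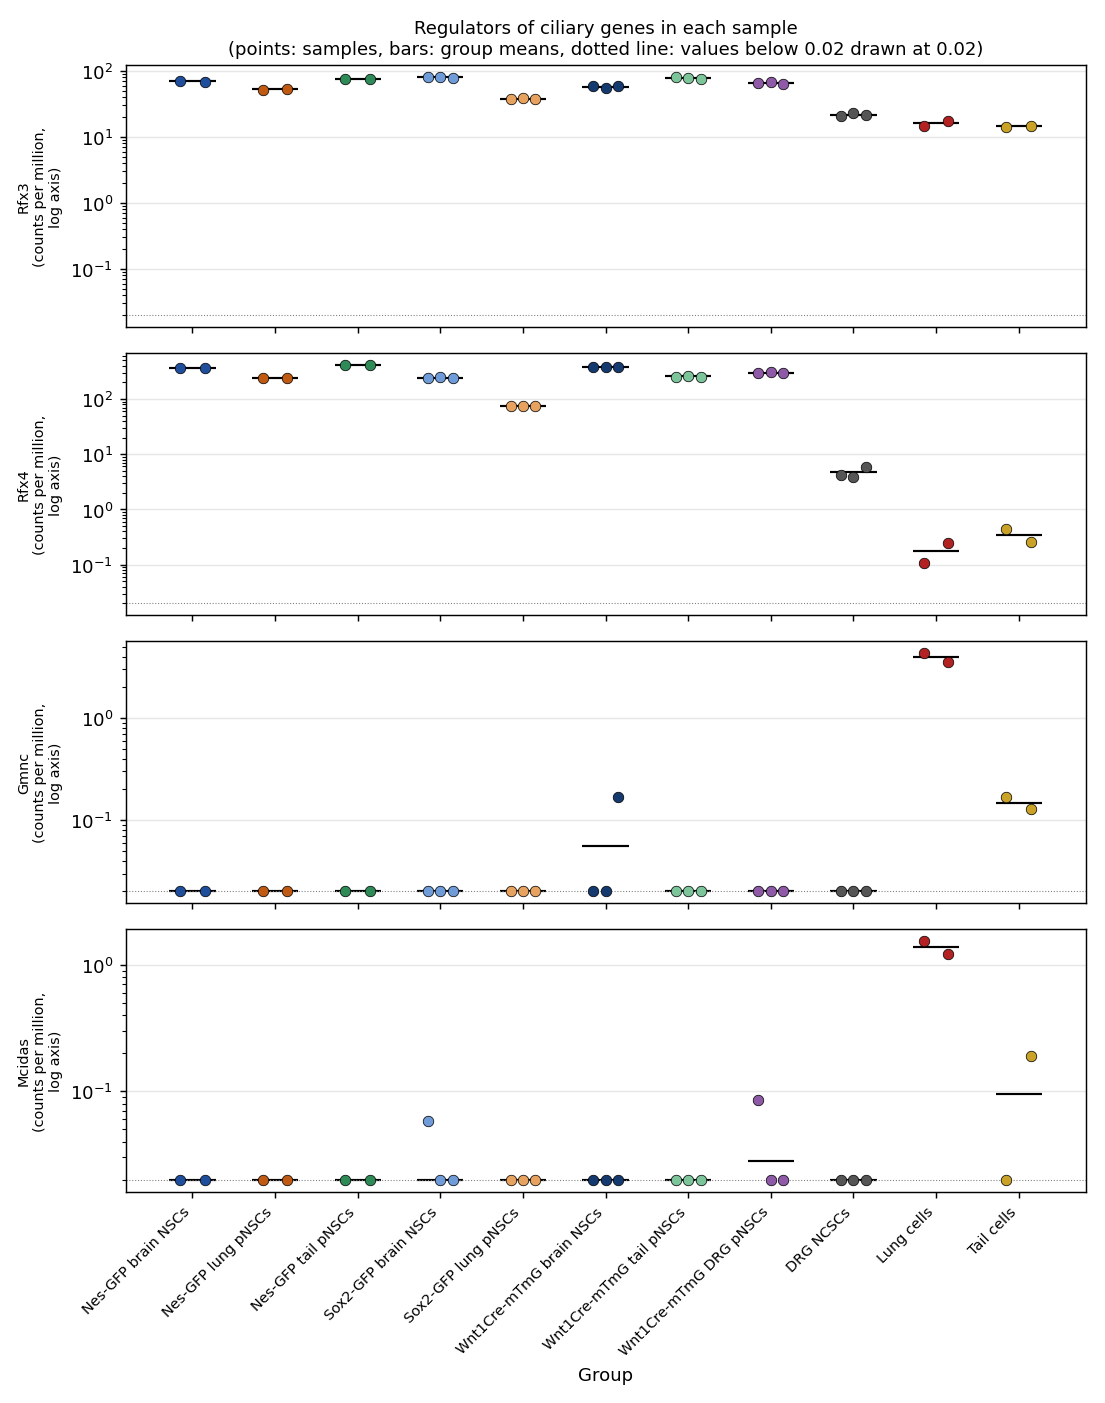
Points are samples and bars group means, in cpm on log axes, for Rfx3, Rfx4, Gmnc and Mcidas. Values under 0.02 cpm are drawn on the dotted line. Rfx3 and Rfx4 are high in all NSC and pNSC samples, and Gmnc and Mcidas appear mainly in lung cells.

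A list of 42 further genes for dynein arm assembly, docking, light chains, the nexin-dynein complex, radial spokes and the central apparatus was set beside them. In Nes-GFP lung pNSCs against lung cells 32 of 39 tested fell and 1, Mns1, rose, where 34.9% of all genes fell and 20.2% rose. List genes that passed the filter only through lung cells had to be lower, so nothing is read from this count. Against brain NSCs, 2 rose and 1 fell in Nes-GFP tail pNSCs (4.31% and 6.59% of all genes), and 0 rose and 4 fell in Nes-GFP lung pNSCs (4.56% and 4.15%). Of 23 tested, 4 rose and 5 fell in Wnt1Cre-mTmG tail pNSCs (9.16% and 9.05% of all genes), and 0 rose and 4 fell in DRG pNSCs (3.12% and 6.41%). The list of 32 intraflagellar transport and BBSome genes, which primary cilia also need, summed to 986.9 to 1194 cpm in the NSC and pNSC samples, 929.2 to 929.7 in lung cells and 1154 to 1212 in DRG NCSCs. In Nes-GFP tail, Wnt1Cre-mTmG tail and DRG pNSCs against brain NSCs 0 of 32 were called by edgeR or DESeq2, where 11, 22 and 15 had an unadjusted p under 0.05, and in Nes-GFP lung pNSCs 1, Bbs5, fell.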

How the data were processed

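PolyA RNA was sequenced as single-end reads on a NextSeq500 from 28 samples in 11 groups. The authors aligned the reads to GRCm38 with HISAT2, used Cufflinks, and counted reads per gene with HTSeq. The deposited values are raw counts for 28244 genes, with no sample column left unmatched. The strand setting, counting mode and annotation release are not given in the sources used here, so overlapping genes may share reads. The study's legends place the samples whose labels name just the tissue in the Nes-GFP experiment.

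Counts were tested with edgeR 4.0.16 in R 4.3.3 by the quasi-likelihood test, fitted per experiment over all its groups after filterByExpr (minimum count 10, minimum total 15) and TMM scaling. Tests were two-sided with Benjamini-Hochberg adjustment over all genes tested, and a call required both an adjusted p below 0.05 and a log2 change of 1 or more in size. Scripts were tested on simulated data. DESeq2 1.42.0, upper-quartile scaling, other filters, only the groups compared, a replicate block and leaving out each replicate were alternatives. Levels are cpm with TMM over all samples. Where the lower group had no counts, the floor was 3 counts per library, and with at most 3 counts per library the ratio is given with an exact 95% counting interval. Intervals and floors cover counting error only, since the reads carry no molecular identifiers. Gene positions come from GENCODE on GRCm38, and of Cfap47 from RefSeq. Figures used Python 3.11.15 and matplotlib 3.10.9.

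The genes, lists and rules were chosen with earlier results of these data known. Named genes are a fixed list (Foxj1, Hydin, Dnah5, Dnah9, Dnah11, Dnai1, Dnaic1, Tekt1, Tekt2, Ccdc39, Ccdc40, Rsph1, Spag6l, Cfap20, Cfap36) and, per comparison, the 4 that rose most and the 4 that fell most past both limits, with at least 1 cpm in the higher group and no overlap between samples. Dnai1 is not a symbol of the table. Dnah17, Cfap97, Cfap43, Tekt3 and the list, neighbour and overlapping genes named outside that rule were chosen after their values were seen, as were contrasts given for a gene that the rule names in another comparison. Replicates had no shared origin given by the labels, so no pairing was used.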

Additional observations from a re-analysis of the deposited data

Results flagged for a closer look

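In the interaction fit over all samples, the tail minus brain difference of 11 genes differed between the Wnt1Cre-mTmG and the Nes-GFP lines by edgeR, with the log2 differences (Wnt1Cre-mTmG minus Nes-GFP) as follows. It was higher for Tekt5 by 8.06, Cfap45 by 3.13, Dnaic2 by 2.74, Cfap126 by 1.98, Dnah7b by 1.71, Cfap100 by 1.58 and Dnah7c by 1.49. It was -3.36 for Cfap47, -1.86 for Dnah8, -1.40 for Hydin and -1.07 for Cfap36. The value of Tekt5 rests on at most 5 counts in any library of the 4 groups and is not an estimate of a fold, and its call was lost without Nes-GFP brain NSC replicate 2. The call of Dnah7c was lost under DESeq2, under the replicate block and in 7 of the fits without a replicate. The call of Cfap45 was lost without Nes-GFP tail pNSC replicate 1, Nes-GFP brain NSC replicate 2, or Wnt1Cre-mTmG brain NSC replicate 2 or 3. The call of Dnah8 was lost without Nes-GFP tail pNSC replicate 1, Nes-GFP brain NSC replicate 1, or Wnt1Cre-mTmG tail pNSC or brain NSC replicate 1. Experiment, mouse line and depth differ together here and cannot be told apart.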

How the results depend on the processing

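For 108 gene results, the genes named by the rule with a call and the genes of the interaction, leaving out Sox2-GFP lung pNSCs against brain NSCs, no alternative fit turned the direction. Of these, 88 also kept their side of the threshold under all alternatives run, and 55 of 1160 alternative fits lost the call. Neighbour genes, list genes and the other genes counted were not refitted one by one. Counts of called genes fell with a filter at a mean count of 100, which leaves fewer genes to test. Calls among all genes, higher and lower, follow in brackets. Against brain NSCs 4 of 25 were called in Nes-GFP tail pNSCs (474 and 632 of 12208). In Nes-GFP lung pNSCs 6 of 25 were (447 and 395 of 12208). Against tail cells 11 of 25 were called (1662 and 3113 of 12208). Against lung cells it was 18 of 25 in Nes-GFP lung pNSCs (2412 and 3391 of 12208). In Sox2-GFP lung pNSCs it was 20 of 25 (2403 and 3178 of 11950). In Wnt1Cre-mTmG tail pNSCs against brain NSCs 2 of 7 were called (767 and 690 of 11037). In DRG pNSCs against brain NSCs edgeR called 0 of 7 (206 and 473 of 11037). There 3 had an unadjusted p under 0.05, and DESeq2 with the standard filter called 5. In each of the 3 contrasts with NCSCs 2 of 7 were called (1795 and 1379, 1413 and 1842, 1363 and 1928 of 11037). In the interaction it was 4 of 11 (993 and 787 of 11796). With no fold limit the counts were 14 in Nes-GFP tail pNSCs (49.1% of all genes), 16 in Wnt1Cre-mTmG tail pNSCs (65.5%) and 9 in DRG pNSCs (45.9%) against brain NSCs, and 26 in DRG pNSCs against NCSCs (82.4%). With only the groups compared, 3 of 23 were called in DRG pNSCs against brain NSCs (372 and 762 of 12721 genes). Sox2-GFP lung pNSCs against brain NSCs are given as a description only. There 9 of 25 genes lay past the limits with the filter at a mean count of 100 (587 and 900 of 11950 genes). With only the groups compared, 9 of 30 did (768 and 1328 of 13474 genes). Leaving out 1 replicate gave 10 to 13 in Nes-GFP lung pNSCs and 3 to 6 in DRG pNSCs against brain NSCs. The genes at 0.5 cpm or more were 28 in Nes-GFP lung pNSCs, 29 in Sox2-GFP lung pNSCs and 34 in Wnt1Cre-mTmG brain NSCs. At 5 cpm they were 10 in Nes-GFP brain NSCs and Wnt1Cre-mTmG DRG pNSCs, 9 in the other NSC and pNSC groups and tail cells, and 8 in DRG NCSCs. Depth limits low genes, since 3 counts correspond to 0.253 to 0.294 cpm in Wnt1Cre-mTmG brain NSCs and DRG pNSCs and to 0.131 to 0.191 cpm in the other groups.

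Same-numbered samples did not deviate together, with correlations from -0.02 to 0.05 over 45 pairs, so the numbers do not pair the samples. With the replicate block 8 genes were called in Nes-GFP tail pNSCs against brain NSCs, 16 in Nes-GFP lung pNSCs, 10 in the interaction and 22 against tail cells, and the counts of the other tested contrasts did not change.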
